A study of Mus musculus with 6 samples.

Results

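Protocadherins are cell-surface adhesion proteins of the cadherin superfamily, and their messenger RNAs were followed here in brain libraries of an Alzheimer's disease mouse model. Members were all gene rows of the deposited expression table whose symbol starts with Pcdh, which gave 70 of the 36210 gene rows. They comprised 14 alpha (Pcdha), 22 beta (Pcdhb) and 22 gamma (Pcdhg) genes of the 3 clusters and 12 non-clustered genes. Of the 70, 69 passed the count filter and were tested. Pcdh12, known in endothelial cells, did not, with 7, 13 and 8 estimated counts in AVE0991 libraries and 6, 7 and 12 in vehicle libraries.

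Total RNA depleted of ribosomal RNA was sequenced in 6 libraries labelled as adult astrocytes from the brain of APP/PS1 mice, a transgenic strain with human disease variants of the amyloid precursor protein and presenilin 1. In 3 libraries the mice had received AVE0991, a non-peptide agonist of the angiotensin receptor Mas, at 10 mg per kg. In the other 3 they had received the vehicle, sterile saline. Injections were intraperitoneal, once a day for 30 days, and the mice were 8 months old. Both groups carried the APP/PS1 transgenes, and mice without them and their promoters were not analysed here. Whether the libraries stem from different animals is not in the labels, and p-values here cover the spread among libraries, which may be technical.

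In the clustered families, each alpha or gamma gene has its own promoter and a large variable exon that is spliced to constant exons shared by the whole cluster, while beta genes are single-exon units without a constant part. Neurons switch on different combinations of the variable genes through looping by CTCF and cohesin between promoters and enhancers, and the C-type genes at the end of the alpha and gamma clusters are expressed more evenly. The proteins bind their own kind on neighbouring membranes, which lets processes of one neuron avoid each other, and gamma proteins are also known in astrocyte branching. Non-clustered delta-protocadherins are separate loci with region- and cell-specific expression.

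Gene rows held 44583296 to 50066692 counts per library, and protocadherins took 0.209% to 0.216% of them in AVE0991 libraries and 0.237% to 0.27% in vehicle libraries. The fit across 20363 genes called 7 genes higher and 169 lower in AVE0991, and the median log2 fold change was -0.01. AVE0991 replicates 2 and 3 stood apart in genes of one brain region. The 8 cerebellar granule cell markers summed to 221, 2076 and 2045 CPM, counts scaled by TMM library size, in AVE0991 libraries and 220, 208 and 184 CPM in vehicle libraries. The 4 striatal markers summed to 642, 193 and 238 CPM in AVE0991 and 212, 261 and 474 CPM in vehicle, so replicate 1 was above all other libraries in these. Values with AVE0991 replicate 1 as the only AVE0991 library are given beside the main ones below. The libraries also held transcripts of cells other than astrocytes. The 8 astrocyte markers summed to 6215, 6960 and 7551 CPM in AVE0991 and 6887, 5487 and 5914 CPM in vehicle. The 6 neuron markers summed to 3446, 3346 and 3059 CPM in AVE0991 and 4029, 3451 and 3707 CPM in vehicle, and the 6 oligodendrocyte markers to 5470, 11782 and 5851 CPM in AVE0991 and 3609, 7773 and 7876 CPM in vehicle. No marker of any list was at 0. In such bulk libraries fewer cells of a type and less RNA per cell cannot be told apart.

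The 4 classes differed in the direction of their values. In the gamma cluster 21 of 22 genes had a log2 fold change above 0, with a median of 0.41 and a range of -0.23 to 0.83. In the non-clustered class 11 of 11 tested genes were below 0, with a median of -0.57 and a range of -1.03 to -0.12. Alpha genes were 6 above and 8 below 0 (median -0.04) and beta genes 7 above and 15 below 0 (median -0.17). Over all genes tested 49.3% were above 0 and 50.7% below.

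No member passed the main test, edgeR's quasi-likelihood F test with Benjamini-Hochberg adjustment over all genes at an adjusted p under 0.05, which called 0.0344% of all genes higher and 0.83% lower. At an unadjusted p under 0.05, edgeR gave 13 members higher and 9 lower, against 10.9% of all genes higher and 12.7% lower. The 13 higher members were all gamma genes, and the 9 lower ones were 6 non-clustered, 2 beta and 1 alpha gene. DESeq2 called 8 members higher, all gamma, and 4 lower, all non-clustered, where it called 4.97% of all genes higher and 6.56% lower. Limma-voom with library weights called 8 gamma members higher and 3 non-clustered members lower, where it called 2.58% of all genes higher and 3.78% lower. At a q-value under 0.05, the authors' deposited table has 4 gamma genes higher and 3 non-clustered genes lower, with 0 alpha and 0 beta genes, and it has 1.78% of all its gene rows higher and 2.93% lower. Below, differences are given as values and calls are named by tool.

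Groups that did not overlap gave the same split. Every AVE0991 library was above every vehicle library in 13 gamma genes and 1 alpha gene, against 14.3% of all genes. Every AVE0991 library was below every vehicle library in 6 non-clustered, 6 beta and 1 alpha gene, against 16.3% of all genes. The share without overlap on the higher side was 59.1% of gamma genes, and that on the lower side was 54.5% of tested non-clustered genes and 27.3% of beta genes.

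**Figure D1:**
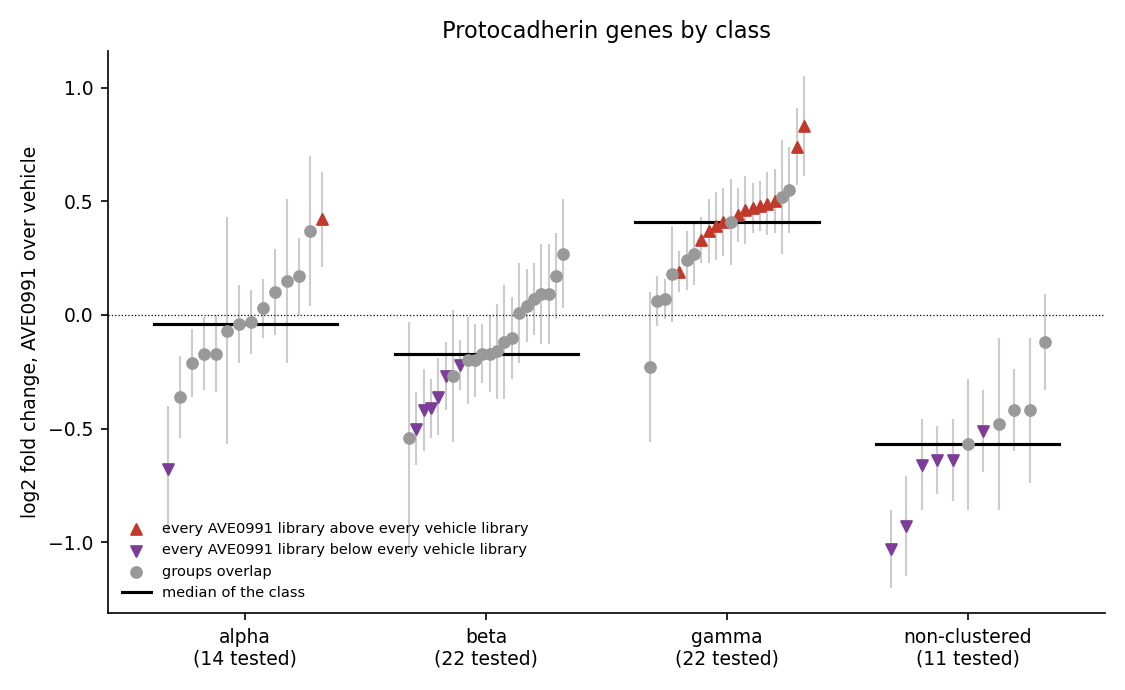
Log2 fold change (AVE0991 over vehicle) of the 69 tested protocadherins by class, ordered by value within the class; vertical lines are standard errors of the edgeR fit and horizontal bars class medians (-0.04, -0.17, 0.41 and -0.57 for alpha, beta, gamma and non-clustered). Triangles mark the genes whose groups did not overlap: 13 gamma genes and 1 alpha gene point up, and 6 non-clustered, 6 beta and 1 alpha gene point down.

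The per-library medians carried the same signs in all AVE0991 libraries for beta, gamma and non-clustered genes. Relative to the vehicle mean on the log2 CPM scale, the gamma median deviated by 0.25, 0.50 and 0.47 in AVE0991 replicates 1, 2 and 3, and by -0.01 in each vehicle library. The non-clustered median deviated by -0.31, -0.69 and -0.88 in AVE0991 and by 0.12, -0.11 and 0.01 in vehicle. The beta median deviated by -0.27, -0.14 and -0.10 in AVE0991, against 0.09, -0.06 and -0.01 in vehicle. For alpha the deviations were -0.10, 0.07 and -0.07 in AVE0991 and 0.10, -0.14 and 0.00 in vehicle, so the groups overlapped. AVE0991 replicate 1 had 20 of 22 gamma genes above the vehicle mean and 2 of 11 non-clustered genes above it. Its cerebellar marker sum lay beside those of the vehicle libraries, and its striatal marker sum was above all others. The part of brain region in these values was not tested.

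**Figure D2:**
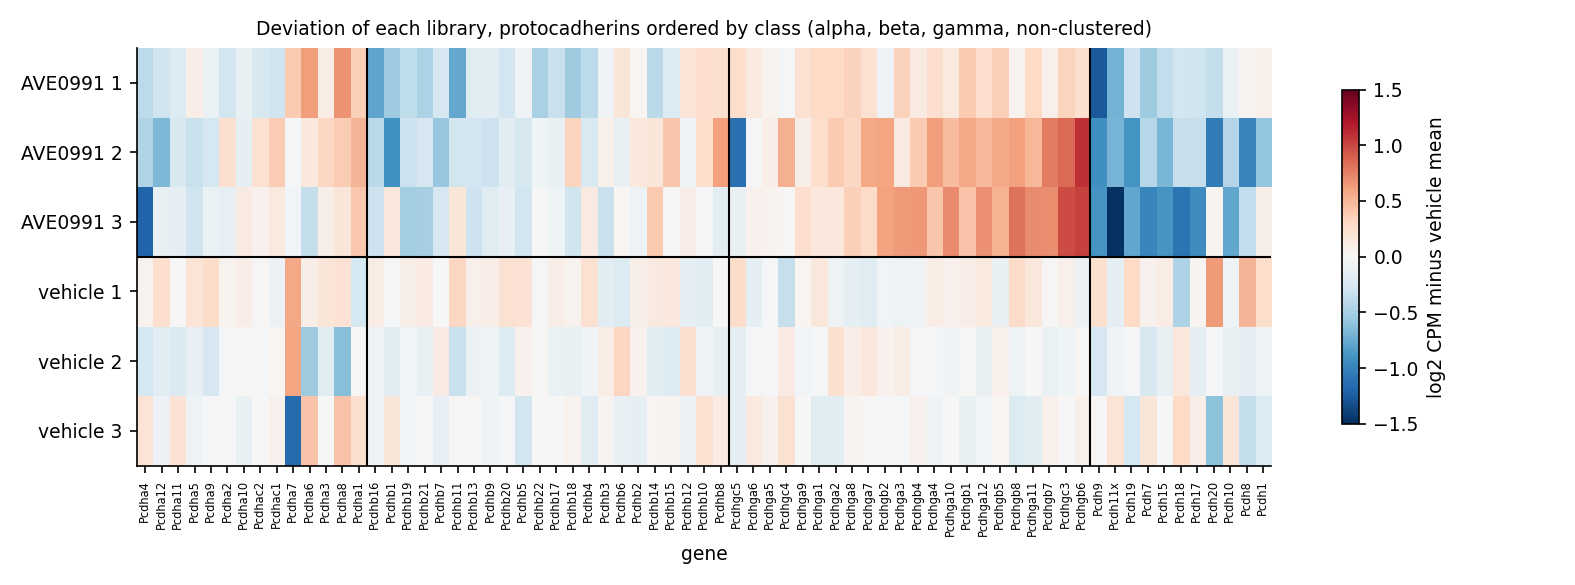
Deviation of each library from the vehicle mean, as log2(CPM + 0.1), for the 69 tested members. Columns are ordered by class and by mean deviation and rows by library, AVE0991 above vehicle. Red fills most of the gamma block and blue most of the non-clustered block in the 3 AVE0991 rows, with stronger colour in replicates 2 and 3 than in replicate 1.

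Levels between genes were compared in the authors' FPKM values, which are scaled to transcript length and library depth. The mean over the 6 libraries ran from 0.0333 FPKM for Pcdh12 to 58.6 FPKM for Pcdh9. Behind Pcdh9 came Pcdhgc3 at 52.3, Pcdh10 at 43.5, Pcdh1 at 40.5, Pcdh7 at 30.0 and Pcdhgc5 at 28.4 FPKM. The leading gene differed between the groups. Pcdhgc3 led in AVE0991 at 63.9 ± 12.7 FPKM, with Pcdh9 at 36.8 ± 3.61 FPKM. In vehicle Pcdh9 led at 80.4 ± 11.2 FPKM (SD, n = 3). Pcdhgc3 had 40.6 ± 1.37 FPKM there, with a mean below those of Pcdh10 and Pcdh1. In AVE0991 libraries the levels of Pcdh9, Pcdh10 (36.6 ± 9.45 FPKM) and Pcdh1 (37.6 ± 9.45 FPKM) lay within their spread of each other. In vehicle libraries Pcdh10 (50.4 ± 5.15 FPKM) and Pcdh1 (43.4 ± 7.03 FPKM) lay within their spread, below Pcdh9.

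The medians of the mean levels were 10.3 FPKM for non-clustered, 5.67 for gamma, 1.47 for alpha and 1.36 for beta genes. Summed over a class, gamma transcripts took 43.9%, 48.7% and 51.1% of all protocadherin FPKM in AVE0991 libraries and 32.2%, 35.6% and 33.4% in vehicle libraries. Non-clustered transcripts took 43.6%, 37.2% and 35.5% in AVE0991 and 55.1%, 50.7% and 53.5% in vehicle. Neither pair of ranges overlapped, so gamma held the larger share in all 3 AVE0991 libraries and non-clustered the larger share in all 3 vehicle libraries. Alpha took 5.99% ± 0.453 in AVE0991 and 5.69% ± 0.151 in vehicle, and beta 7.36% ± 0.353 in AVE0991 and 7.47% ± 0.324 in vehicle (SD, n = 3), differences within the spread of the libraries.

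**Figure D3:**
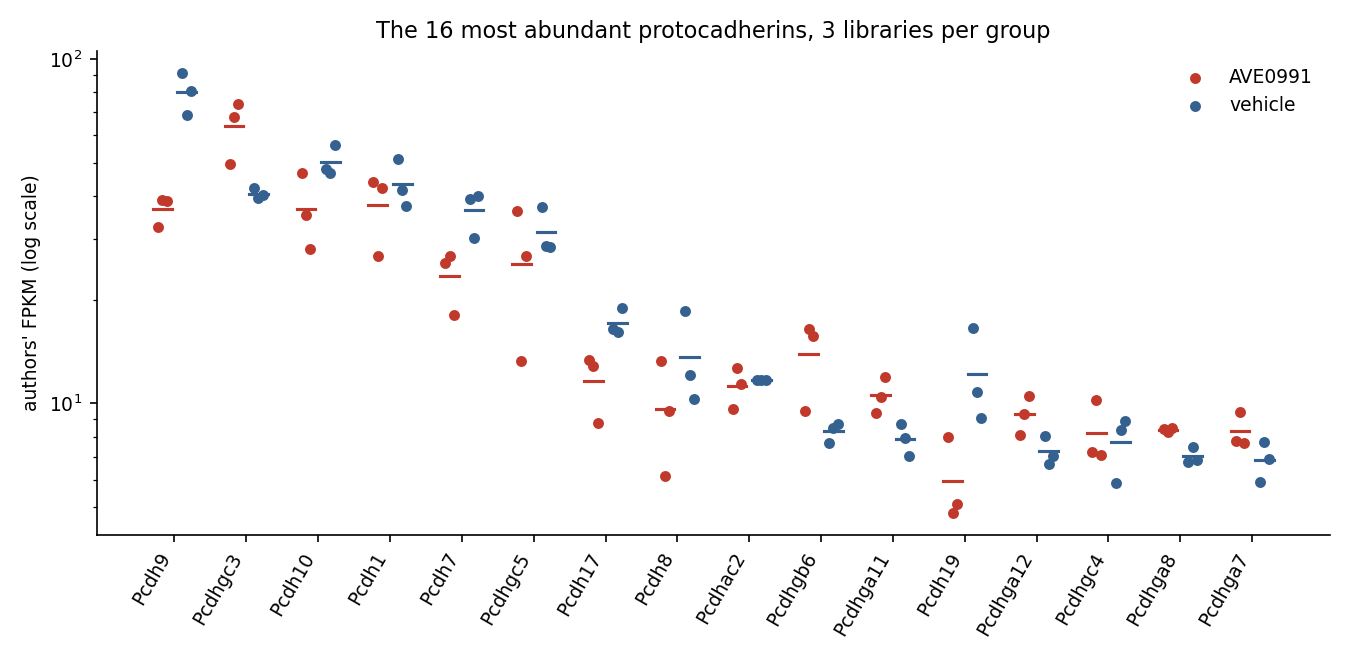
The authors' FPKM (log scale) of the 16 protocadherins with the highest mean level, with 1 point per library, AVE0991 left and vehicle right within each gene, and bars at group means. Pcdh9, Pcdh10, Pcdh7, Pcdh17 and Pcdh19 have all AVE0991 points below all vehicle points, Pcdh10 by the smallest margin, and Pcdhgc3, Pcdhgb6, Pcdhga11, Pcdhga12 and Pcdhga8 have all above.

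The gamma cluster summed to 915, 1024 and 1121 CPM in AVE0991 libraries and 799, 759 and 762 CPM in vehicle libraries. All 3 AVE0991 sums were above all vehicle sums, and the ratio of the means was 1.32. By subfamily, the median log2 fold change was 0.35 for the 12 A-type genes (12 above 0), 0.48 for the 7 B-type genes (7 above 0) and 0.18 for the 3 C-type genes (2 above 0). The B-type sum was 136, 204 and 201 CPM in AVE0991 and 117, 120 and 121 CPM in vehicle. It was the subfamily sum with the largest ratio (1.51), and AVE0991 replicate 1 lay close to the vehicle libraries. The A-type sum was 344, 373 and 391 CPM in AVE0991 and 290, 296 and 286 CPM in vehicle, with a ratio of 1.27 and a smaller distance between AVE0991 libraries.

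Pcdhgc3 is a C-type isoform expressed in neurons and glia, whose cytoplasmic part is known to bind the Wnt pathway scaffold Axin1. It had 230, 329 and 361 CPM in AVE0991 and 193, 175 and 182 CPM in vehicle. Every AVE0991 library was above every vehicle library, with the smallest difference in replicate 1. The log2 fold change was 0.74 with a standard error of 0.17 (1.67-fold), and the adjusted p was 0.0946 with edgeR, 0.00314 with DESeq2 and 0.0313 with limma-voom. With AVE0991 replicate 1 alone the log2 fold change was 0.34 (edgeR adjusted p = 0.335). Its share of gamma FPKM was 25%, 31.9% and 32% in AVE0991 and 23.8%, 22.9% and 23.8% in vehicle.

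The other C-type isoforms had different values. Pcdhgc5, which appears late in brain development and is known to associate with GABA receptors, had 169, 64.9 and 131 CPM in AVE0991 and 171, 128 and 129 CPM in vehicle. Replicate 1 lay beside the highest vehicle library, and replicate 2 was less abundant than all others. Its log2 fold change was -0.23 ± 0.33 (SE; edgeR adjusted p = 0.716), and it was the only gamma gene below 0. It was 0.08 without AVE0991 replicate 2, so that library set its sign. Pcdhgc4, known for its part in the survival of interneurons, had 36.0, 53.0 and 37.1 CPM in AVE0991 and 28.8, 40.0 and 42.9 CPM in vehicle. The groups overlapped (log2 fold change 0.18 ± 0.21 SE; edgeR adjusted p = 0.646), and the value was -0.02 without AVE0991 replicate 2.

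Pcdhgb6 had the largest value of the clusters. It had 44, 79.5 and 76.2 CPM in AVE0991 and 35.0, 37.8 and 39.2 CPM in vehicle, so that replicates 2 and 3 had about the same level and replicate 1 was nearer to vehicle. The log2 fold change was 0.83 ± 0.22 (SE), with adjusted p of 0.114 from edgeR, 0.0097 from DESeq2 and 0.0368 from limma-voom, and it was 0.24 with AVE0991 replicate 1 alone. Pcdhgb5 had 17.4, 20 and 19.4 CPM in AVE0991 and 12.5, 14.3 and 13.8 CPM in vehicle. Here AVE0991 replicate 1 stood with the other AVE0991 libraries, and the log2 fold change was 0.48 ± 0.11 (SE), with the smallest edgeR adjusted p of the gamma genes (0.0875).

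Pcdhgb1 likewise had 17.9, 20.3 and 18.3 CPM in AVE0991 and 14.6, 13.8 and 12.6 CPM in vehicle, without overlap (log2 fold change 0.47 ± 0.11 SE; adjusted p 0.0943 with edgeR and 0.00853 with DESeq2). Pcdhga11 had 43.8, 50.5 and 58.2 CPM in AVE0991 and 40.1, 35.5 and 31.9 CPM in vehicle (log2 fold change 0.50 ± 0.14 SE; edgeR adjusted p = 0.119). Its lowest AVE0991 library exceeded the highest vehicle library by 0.13 on the log2 scale. The A-type genes Pcdhga4, Pcdhga8 and Pcdhga12, also called by DESeq2, lie outside the rule for named genes and were chosen after their values were seen. Their log2 fold changes were 0.44, 0.33 and 0.49, and Pcdhga8 had 38.9, 38.1 and 39.5 CPM in AVE0991 and 27.9, 32.9 and 31.6 CPM in vehicle, with the 3 AVE0991 libraries close together. At the low end of the cluster, Pcdhga5 and Pcdhga6, also named from their values, had log2 fold changes of 0.07 and 0.06 with overlapping groups.

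**Figure D4:**
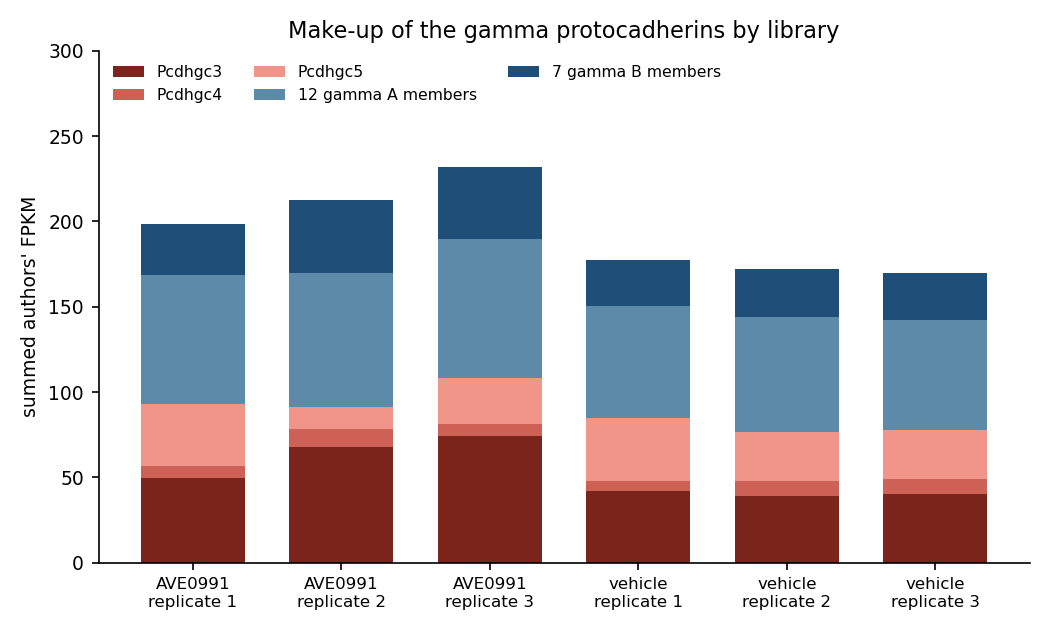
Summed authors' FPKM of the gamma cluster in each library, AVE0991 left and vehicle right, split into the 3 C-type isoforms, the 12 A-type and the 7 B-type genes. The stacks reach 198, 213 and 232 FPKM in AVE0991 and 177, 172 and 170 FPKM in vehicle; the Pcdhgc3 segment is largest in AVE0991 replicates 2 and 3, and the Pcdhgc5 segment is smallest in replicate 2.

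The 3 subfamilies kept similar shares of the cluster. A-type genes held 36.6% ± 1.38 of gamma FPKM in AVE0991 and 38% ± 1.2 in vehicle, and C-type genes 45.5% ± 2.2 in AVE0991 and 46.1% ± 1.81 in vehicle (SD, n = 3). B-type genes held 15.1%, 20.2% and 18.2% in AVE0991 and 15.1%, 16.3% and 16.3% in vehicle, with replicate 1 at the lower end of the vehicle range. Gamma mRNAs share their constant exons, and 6.68% to 67.8% of the 31-base words of a gamma gene's longest transcript also occur in another member's. Only 0.758% of the deposited estimated counts of gamma rows were whole numbers, against 81.6% of all gene rows, so reads were divided between isoforms. Single-isoform values therefore depend on how the authors' counting divided shared reads. Gamma rows that share reads can move together, so counts of gamma genes on one side are not counts of independent observations. A division within the cluster leaves the cluster's sum as it is.

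The non-clustered genes summed to 1008, 894 and 869 CPM in AVE0991 and 1572, 1256 and 1424 CPM in vehicle. The sums did not overlap, and the ratio of the means was 0.652. Unlike in the alpha and gamma clusters, at most 0.245% of a member's 31-base words occurred in another protocadherin. Of the deposited non-clustered counts 66.7% were whole numbers, against 81.6% of all gene rows. Only 8 of the 12 genes had whole counts in every library, so some non-clustered reads were divided as well. The delta-1 group (Pcdh1, Pcdh7, Pcdh9 and Pcdh11x) had a log2 fold change of -0.79 at the median, the delta-2 group (Pcdh8, Pcdh10, Pcdh17, Pcdh18 and Pcdh19) one of -0.51, and Pcdh15 and Pcdh20 had -0.64 and -0.48.

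Promoter sequences were looked up because these genes lie at separate loci and 11 of 11 lay on the same side of 0. RefSeq entries on GRCm38.p6 were at hand for 9 of the 70 members (Pcdh7, Pcdh8, Pcdh9, Pcdh10, Pcdh15, Pcdh17, Pcdh18, Pcdh19 and Pcdh20), with 250 bases before and 50 after the annotated start. Pcdh15 is among the 9 and its groups did not overlap, but its sequence is not shown. The 4 shown are Pcdh9 at chr14:93890630-93890929 on the minus strand, Pcdh7 at chr5:57717831-57718130 on the plus strand, Pcdh17 at chr14:84443313-84443612 on the plus strand and Pcdh19 at chrX:133688944-133689243 on the minus strand, which are genes without overlap between groups. Each is written 5′ to 3′ on the gene's strand, with capitals marking CCAAT or its reverse complement ATTGG.
Pcdh9: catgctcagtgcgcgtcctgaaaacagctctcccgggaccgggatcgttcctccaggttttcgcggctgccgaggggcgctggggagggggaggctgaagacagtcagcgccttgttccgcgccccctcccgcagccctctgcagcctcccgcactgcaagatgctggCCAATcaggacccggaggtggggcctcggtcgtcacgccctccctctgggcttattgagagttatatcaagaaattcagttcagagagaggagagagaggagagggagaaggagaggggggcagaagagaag
Pcdh7: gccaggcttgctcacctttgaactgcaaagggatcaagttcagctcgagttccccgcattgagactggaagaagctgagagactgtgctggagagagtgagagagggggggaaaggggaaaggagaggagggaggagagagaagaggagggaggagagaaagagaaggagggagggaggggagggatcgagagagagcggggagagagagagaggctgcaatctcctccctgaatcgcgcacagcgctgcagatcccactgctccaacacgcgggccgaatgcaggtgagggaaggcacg
Pcdh17: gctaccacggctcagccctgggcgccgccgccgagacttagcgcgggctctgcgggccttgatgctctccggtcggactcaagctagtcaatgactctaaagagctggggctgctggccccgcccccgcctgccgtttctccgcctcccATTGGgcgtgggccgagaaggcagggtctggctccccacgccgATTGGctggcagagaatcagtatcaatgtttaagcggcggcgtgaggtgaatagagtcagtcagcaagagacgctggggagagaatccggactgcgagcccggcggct
Pcdh19: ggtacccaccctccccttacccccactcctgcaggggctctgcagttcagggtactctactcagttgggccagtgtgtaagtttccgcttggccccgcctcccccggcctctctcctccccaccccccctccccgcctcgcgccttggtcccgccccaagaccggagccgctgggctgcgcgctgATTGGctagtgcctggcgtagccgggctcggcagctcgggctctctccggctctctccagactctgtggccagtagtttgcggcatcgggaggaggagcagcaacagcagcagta
The letters CCAAT, on either strand, were in 8 of the 9 member promoters and in 37.9% of 27025 promoters of the same length. Pcdh7 was the member without them. TATAAA was in 2 of 9 (Pcdh8 and Pcdh15) against 14.2%, and TGACG in 2 of 9 (Pcdh9 and Pcdh10) against 21%, both on either strand, and matches that share letters with another motif were kept. These motifs were chosen after the sequences were seen, and a match describes letters only. The 4 promoters held 18, 11, 26 and 18 CpG dinucleotides in the order shown. The 9 member promoters ran from 4 (Pcdh20) and 8 (Pcdh15) to 26, against a median of 7 over all promoters.

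Pcdh9 is a delta-1 protocadherin of cortical and other neurons and had the highest mean FPKM over the 6 libraries, though not within AVE0991. It had 186, 236 and 240 CPM in AVE0991 and 525, 375 and 449 CPM in vehicle. Every AVE0991 library was below every vehicle library by at least 0.64 on the log2 scale, and the lowest was replicate 1. That library lacked raised cerebellar markers but had the highest striatal marker sum, and the part of brain region was not tested. The log2 fold change was -1.03 ± 0.17 (SE; 2.04-fold lower), and the adjusted p of 0.0507 with edgeR was the smallest of all members. It was 0.176 with the GC correction, where the log2 fold change was -0.68. The adjusted p was 9.1e-06 with DESeq2 and 0.0316 with limma-voom, and the authors' deposited table gives a log2 fold change of -1.01 with a q-value of 3.04e-05.

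Pcdh11x, an X-linked delta-1 gene, had 20.6, 20.8 and 12.1 CPM in AVE0991 and 30.7, 32.2 and 39.2 CPM in vehicle. The groups were apart by 0.56 on the log2 scale, and the log2 fold change was -0.93 ± 0.22 (SE; edgeR adjusted p = 0.0985). After the correction for transcript GC content it was -0.17. Its transcript has the lowest GC content of the members (36.3%), and the median of the 244 tested genes in its GC bin was -0.63. Pcdh7, a delta-1 protein known to bind a protein phosphatase, had 142, 153 and 105 CPM in AVE0991 and 215, 174 and 234 CPM in vehicle, without overlap (log2 fold change -0.64 ± 0.18 SE; edgeR adjusted p = 0.119). Pcdh1, the fourth delta-1 gene and in humans a susceptibility gene for asthma, had 176, 112 and 178 CPM in AVE0991 and 202, 160 and 145 CPM in vehicle. Its groups overlapped (log2 fold change -0.12 ± 0.21 SE; edgeR adjusted p = 0.766), and its transcript has the highest GC content of the members (60.7%).

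Among delta-2 genes, Pcdh19, in humans the gene of an epilepsy that affects mainly females, had 70.0, 46.7 and 50.6 CPM in AVE0991 and 106, 85.4 and 72.0 CPM in vehicle. The groups were apart by 0.04 on the log2 scale (log2 fold change -0.66 ± 0.20 SE; edgeR adjusted p = 0.134). In FPKM the means were 5.97 ± 1.76 in AVE0991 and 12.1 ± 3.92 in vehicle (SD, n = 3), a larger ratio than in the counts. Pcdh17, known at synapses between cortex and basal ganglia, had 99.4, 96.4 and 63.8 CPM in AVE0991 and 126, 112 and 131 CPM in vehicle, without overlap (log2 fold change -0.51 ± 0.18 SE; edgeR adjusted p = 0.162).

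Pcdh10, which recruits the actin-regulating WAVE complex, had 215, 169 and 134 CPM in AVE0991 and 221, 213 and 260 CPM in vehicle. AVE0991 replicate 1 lay among the vehicle libraries and the other 2 below them (log2 fold change -0.42 ± 0.18 SE; edgeR adjusted p = 0.223). Pcdh8, also called arcadlin and induced by synaptic activity, had 51.4, 25.0 and 38.5 CPM in AVE0991 and 70.7, 44.7 and 38.8 CPM in vehicle (log2 fold change -0.42 ± 0.32 SE; edgeR adjusted p = 0.455). Its log2 fold change with AVE0991 replicate 1 alone was 0.01. Leaving out 1 library gave -0.69 to -0.10, and the -0.10 came without vehicle replicate 1. The Pcdh8 difference thus depended on single libraries of both groups. Pcdh18, whose protein is known to bind the adaptor Dab1, had 7.78, 7.36 and 4.36 CPM in AVE0991 and 6.79, 10.6 and 11.6 CPM in vehicle, with overlap (log2 fold change -0.57 ± 0.29 SE; edgeR adjusted p = 0.274).

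Pcdh15, known from the tip links of inner-ear hair cells and also transcribed in oligodendrocyte precursors, had 18.5, 14.8 and 12.9 CPM in AVE0991 and 26, 22.1 and 23.9 CPM in vehicle. The groups did not overlap (log2 fold change -0.64 ± 0.15 SE; adjusted p 0.0955 with edgeR and 0.0185 with DESeq2). The 4 oligodendrocyte precursor markers summed to 301, 337 and 237 CPM in AVE0991 and 260, 323 and 336 CPM in vehicle, with overlap, and their part in this difference was not tested. Pcdh20 had 21.5, 13.3 and 28.5 CPM in AVE0991 and 43.2, 27.3 and 18 CPM in vehicle, with overlap (log2 fold change -0.48 ± 0.38 SE; edgeR adjusted p = 0.475).

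Alpha genes summed to 130, 150 and 144 CPM in AVE0991 and 154, 138 and 146 CPM in vehicle, a ratio of 0.97 with overlapping groups. Pcdhac2, a C-type isoform that spaces serotonergic axons, was the most abundant alpha gene, at 11.2 ± 1.55 FPKM in AVE0991 and 11.7 ± 0.04 FPKM in vehicle (SD, n = 3). It had 51.7, 71.4 and 64.2 CPM in AVE0991 and 61.8, 60.5 and 61.1 CPM in vehicle, so the vehicle libraries lay within the AVE0991 range (log2 fold change 0.03 ± 0.13 SE; edgeR adjusted p = 0.909). It made up 41.8% ± 3.37 of alpha FPKM in AVE0991 and 40.1% ± 1.73 in vehicle. Pcdhac1, the other C-type isoform, had 8.49, 13.7 and 11.6 CPM in AVE0991 and 9.86, 10.7 and 10.9 CPM in vehicle (log2 fold change 0.10 ± 0.19 SE; edgeR adjusted p = 0.768).

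The 12 variable alpha genes ran from a log2 fold change of -0.68 to 0.42. At the lower end Pcdha4 had 2.42, 2.32 and 1.34 CPM in AVE0991 and 3.35, 2.66 and 3.73 CPM in vehicle, without overlap (edgeR adjusted p = 0.206). At the upper end Pcdha1 had 2.65, 2.96 and 2.76 CPM in AVE0991 and 1.69, 2.08 and 2.45 CPM in vehicle, also without overlap (edgeR adjusted p = 0.264). These are among the least abundant members. Pcdha12, the most abundant variable alpha gene, had 13.7, 10.6 and 15.7 CPM in AVE0991 and 20.2, 15.2 and 15.9 CPM in vehicle, with overlap (log2 fold change -0.36 ± 0.18 SE). Pcdha11 and Pcdha8 had log2 fold changes of -0.21 and 0.37, and their groups overlapped. Of the words of an alpha transcript 48.4% to 70.2% are shared with another member, and 2.38% of the deposited alpha counts were whole, so the division of reads touches these isoforms as it does the gamma ones.

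Beta genes, which have 1 exon each, summed to 104, 117 and 117 CPM in AVE0991 and 132, 121 and 123 CPM in vehicle. The sums did not overlap, and the ratio of the means was 0.897. Their counts were mostly whole (87.9%), and at most 22.5% of their words were shared. Pcdhb16 had 6.46, 8.45 and 9.03 CPM in AVE0991 and 12.1, 10.8 and 10.8 CPM in vehicle, without overlap (log2 fold change -0.50 ± 0.16 SE; adjusted p 0.139 with edgeR and 0.0559 with DESeq2). Pcdhb19 had 6.22, 6.47 and 5.61 CPM in AVE0991 and 8.62, 7.87 and 7.87 CPM in vehicle, without overlap (log2 fold change -0.41 ± 0.13 SE; edgeR adjusted p = 0.138). After the GC correction the 2 values were -0.18 and 0.03, so the sign of Pcdhb19 was not kept.

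Pcdhb21, Pcdhb7 and Pcdhb9 were the other named beta genes without overlap, with log2 fold changes of -0.42, -0.36 and -0.22. Pcdhb9, the most abundant beta gene, had 3.55 ± 0.271 FPKM in AVE0991 and 4.38 ± 0.206 FPKM in vehicle (SD, n = 3). Pcdhb17 followed Pcdhb9 in level among the beta genes. Its log2 fold change was -0.17 ± 0.13 (SE; edgeR adjusted p = 0.473) and 0.07 after the GC correction. The least abundant tested member, Pcdhb1, had 7, 4 and 13 counts in AVE0991 and 11, 11 and 15 counts in vehicle, too few to show a moderate difference.

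Transcript GC content moved with the fold change over all genes, and the protocadherin classes differ in it. Gamma transcripts have 51% to 55.4% GC, alpha 46.5% to 49.8%, beta 39.1% to 49% and non-clustered 36.3% to 60.7%, against a median of 50% over all genes tested. For all 3506 genes within the gamma range the median log2 fold change was 0.16, with 73.4% above 0 and 26.8% having every AVE0991 library above every vehicle library, against 95.5% and 59.1% of gamma genes. All 6406 genes within the beta range had a median of -0.14 with 27.3% separate on the lower side, close to the beta values of -0.17 and 27.3%. All 14930 genes within the wide non-clustered range had a median of 0.03, with 15% separate on the lower side. Pcdh11x and Pcdh1 set the ends of that range, so its genes are not matched in GC to most members. The non-clustered median GC was 45.5%, and the 1488 tested genes in the bin around 45% had a median log2 fold change of -0.10. After the GC correction the class medians were 0.03 for alpha, 0.02 for beta, 0.33 for gamma and -0.40 for non-clustered genes. Gamma genes were still above 0 in 21 of 22 cases and non-clustered genes below 0 in 11 of 11, while beta genes were above 0 in 14 of 22. With this correction edgeR called 0 members, where it called 1 gene higher and 1 lower among all 20363. With the correction, 16 of 69 members had an unadjusted p under 0.05, against 17.3% of all genes. Beside the values given above, it moved Pcdh10 to -0.13, Pcdh17 to -0.34, Pcdh20 to -0.09 and Pcdhb21 to -0.07, closer to 0. Other named genes moved farther from 0, among them Pcdh8 to -0.56, Pcdh1 to -0.27 and Pcdhgc5 to -0.32.

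**Figure D5:**
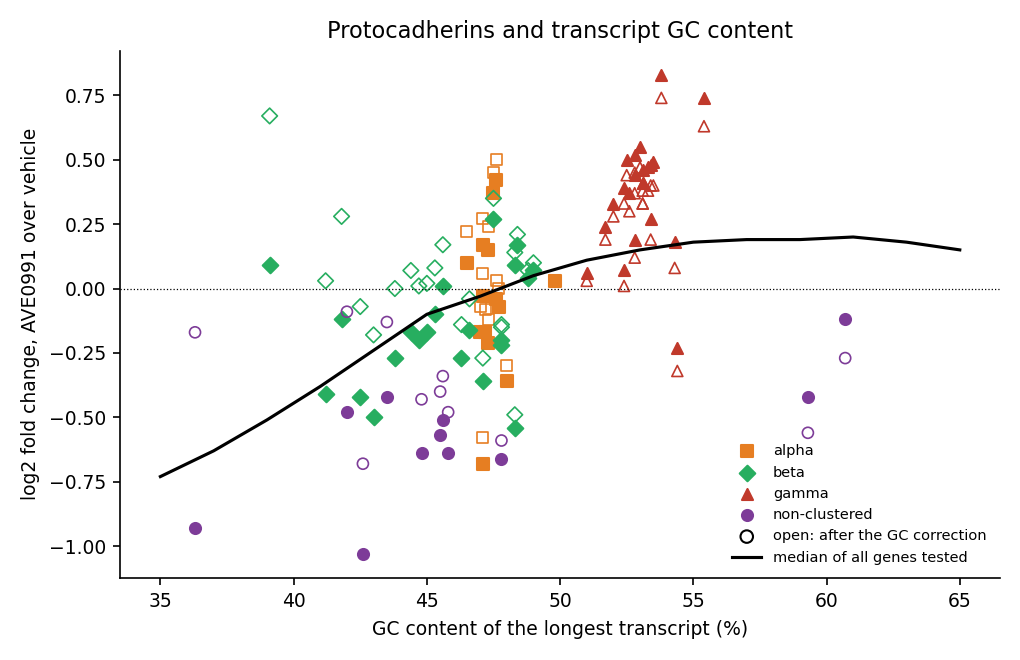
Log2 fold change (AVE0991 over vehicle) of the 69 tested members against the GC content of their longest transcript in percent; filled symbols are the edgeR values, open symbols those after the GC correction, and the line joins medians of all tested genes in GC bins. Gamma genes lie mostly above the line and non-clustered genes below it, and beta genes lie on both sides of it. The beta gene Pcdhb14 (39.1% GC) lies above it, at 0.09 against a bin median of -0.51, and is at 0.67 after the correction.

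Genes around the protocadherins were taken from lists chosen with earlier results known. Of 19 chromatin regulators of the clusters, edgeR called 0 higher and 1 lower, and the median log2 fold change was 0.11. The called gene was Pds5b, which regulates cohesin on chromatin, with 61.6, 53.6 and 59.5 CPM in AVE0991 and 107, 96.9 and 89.7 CPM in vehicle. It fell by 0.75 on the log2 scale in AVE0991 (SE 0.11; edgeR adjusted p = 0.043), and its groups were apart. The log2 value was -0.29 with the GC correction (edgeR adjusted p = 0.244), a fit that called 1 gene higher and 1 lower in all. Leaving out AVE0991 replicate 2 or 3 or vehicle replicate 1, 2 or 3 gave log2 values of -0.81 to -0.66. The edgeR adjusted p was then 0.0995 to 0.227, in fits that called 0 of all genes. Leaving out AVE0991 replicate 1 gave 0.0141, in a fit that called 1386 genes higher and 995 lower. For Pds5b the edgeR adjusted p was 0.051 with RLE size factors, 0.0509 with the length correction, 0.059 with gene and circular rows together and 0.125 with the replicate block. Other cohesin genes were Stag2 at -0.73, the cohesin release factor Wapl at -0.49 and Pds5a at -0.37, with edgeR adjusted p of 0.0955, 0.101 and 0.128. These 4 transcripts have 38.1% to 43.2% GC. The core subunits Rad21, Smc1a and Smc3 were at 0.11, 0.21 and 0.11 and the loader gene Mau2 at 0.19, while Stag1 and the loader gene Nipbl were at -0.14 and -0.38, all outside the rule for named genes, so cohesin genes had no common direction. The insulator protein gene Ctcf had 55.1, 55.6 and 60.6 CPM in AVE0991 and 54.0, 53.0 and 54.7 CPM in vehicle. It lies outside the rule for named genes and is given for its known role at these promoters. Its log2 fold change was 0.08 ± 0.09 (SE; edgeR adjusted p = 0.591).

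Among 12 kinases and adaptors reported downstream of protocadherins the median was 0.08, and edgeR called 0. Pdcd10 had 13.9, 7.45 and 11.0 CPM in AVE0991 and 19.4, 20.4 and 23.2 CPM in vehicle (log2 fold change -0.96; edgeR adjusted p = 0.0943). Its transcript has 35.9% GC, and the 64 tested genes in its GC bin had a median of -0.73. Fyn had 0.28, Axin1 0.27 and Ctnnb1 0.22 on the log2 fold change scale. The 9 WAVE complex genes had a median of -0.18 and 0 calls with edgeR. Within it Nckap1 had 301, 266 and 287 CPM in AVE0991 and 410, 365 and 368 CPM in vehicle (-0.42), and Cyfip1 had 140, 149 and 161 CPM in AVE0991 and 120, 113 and 118 CPM in vehicle (0.35). Both were without overlap, in opposite directions.

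The 8 genes of proteases that cut protocadherins had a median of 0.23 with 7 above 0 and 0 edgeR calls, and the smallest p were those of Aph1a (0.41) and Ncstn (0.25), both subunits of gamma-secretase. Of 6 neuroligins and neurexins edgeR called 0 (median -0.04), with Nlgn1 at -0.86, Nrxn3 at -0.55 and Nrxn2 at 0.41. Transcripts of Nlgn1, Nrxn3 and Nrxn2 have 38.9%, 47.5% and 62.4% GC, in bins with medians of -0.51, -0.03 and 0.18. Of 9 atypical large cadherins 8 were tested, with a median of 0.38 and 0 edgeR calls. Fat2, itself a cerebellar granule cell marker, had 24.4, 660 and 598 CPM in AVE0991 and 35.7, 14.5 and 14.2 CPM in vehicle, so its difference rests on replicates 2 and 3. Fat1 had 179, 511 and 390 CPM in AVE0991 and 145, 169 and 182 CPM in vehicle, with the same 2 libraries high and with replicate 1 inside the vehicle range. Celsr3 had 63.5, 121 and 121 CPM in AVE0991 and 72.4, 55.7 and 59.4 CPM in vehicle, likewise with replicate 1 inside the vehicle range. Dchs1 had 48.1, 75.7 and 64.4 CPM in AVE0991 and 37.6, 44.4 and 39.1 CPM in vehicle. Its groups did not overlap (log2 fold change 0.64 ± 0.17 SE; edgeR adjusted p = 0.117). At an unadjusted p under 0.05 edgeR gave 7 of the chromatin regulators, 2 of the kinases and adaptors, 3 of the WAVE genes, 2 of the proteases, 3 of the neuroligins and neurexins and 5 of the atypical cadherins, against 23.6% of all genes. In the same order of lists DESeq2 called 4, 2, 2, 0, 2 and 3 genes, against 11.5% of all genes. These lists are too short to read a share from.

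Cell type markers were set beside these values, and their part in them was not tested. For the 8 astrocyte markers the median log2 fold change was 0.51 with 7 above 0, and the 6 neuron markers one of 0.04 with 3 above 0. The 5 cortical and hippocampal markers had a median of -0.57 with 0 above 0, and summed to 329, 216 and 311 CPM in AVE0991 and 393, 361 and 337 CPM in vehicle. Microglia markers summed to 341, 245 and 290 CPM in AVE0991 and 303, 257 and 284 CPM in vehicle. Endothelial markers summed to 27.9, 90.5 and 45.5 CPM in AVE0991 and 47.6, 96.0 and 47.8 CPM in vehicle. With AVE0991 replicate 1 as the only AVE0991 library, the gamma median was 0.25 with 20 of 22 genes above 0, and the non-clustered median was -0.31 with 10 of 12 genes that passed the filter below 0. Among named genes this setting moved Pcdhga11 to 0.30, Pcdh15 to -0.36, Pcdh19 to -0.32, Pcdh17 to -0.30, Pcdh18 to -0.31 and Pcdh10 to -0.10, closer to 0, and Pcdhb16 to -0.79 and Pcdh9 to -1.27, farther from it.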

How the data were processed

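Each library was deposited as one column of estimated counts and one of FPKM, made by the authors, per the file headers and the values (the FPKM unit was worked out from the values). HISAT and the mm9 build are named in the submitters' processing notes. The counting step, annotation and strand setting were not given in the sources used here. A second deposited table held the authors' log2 fold changes with p-values and q-values, which per the file headers came from DESeq2.

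Estimated counts of the 36210 gene rows were rounded and fitted with edgeR 4.0.16 under R 4.3.3 (filterByExpr, TMM, quasi-likelihood F test with robust dispersions, AVE0991 over vehicle, no covariate, Benjamini-Hochberg adjustment over 20363 genes, threshold 0.05). The common biological coefficient of variation was 24.7% and the median prior degrees of freedom 2.93. Standard errors are the log2 fold change over the square root of F, and CPM use TMM library sizes. DESeq2 1.42.0 and limma 3.58.1 (voom with library weights; log2(FPKM + 0.1) and log2(FPKM + 1)) were alternatives, as were RLE size factors, other filters, the replicate block, smooth corrections (6 degrees of freedom) for GC content and length, and leaving out libraries.

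GC content, length and shared 31-base words came from each gene's longest GENCODE M21 transcript on GRCm38, not from mm9, so no coordinates other than those of RefSeq promoters are given. Members, lists and tests were chosen with earlier results of these data known. Named genes were, in each class, up to 5 members by smallest p and the 2 most abundant, all C-type isoforms, all non-clustered genes, and up to 4 genes of a pathway list by smallest p. Every 2 libraries differed beyond sampling noise (chi-square of 16.4 per gene or more).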

Additional observations from a re-analysis of the deposited data

How the results depend on the processing

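Against 0 members called lower with edgeR, DESeq2 called 4, limma-voom 3, and the fits with no filter, with a mean of at least 1 CPM, on log2(FPKM + 0.1), on log2(FPKM + 1) and with the length correction 1 each. Over all genes the fits with 1 lower member called 379, 328, 287, 310 and 171 genes lower, in the order named. Against 0 called higher, DESeq2 and limma-voom called 8 each and the fit with no filter 1, with 58 genes higher in all. Leaving out 1 library gave 0 to 3 lower and 0 to 11 higher calls. The 3 and 11 came without AVE0991 replicate 1, when edgeR called 1386 genes higher and 995 lower in all. Leaving out any other library gave 0 calls over all genes, so the 0 members there say nothing about protocadherins. The cause of these differences between fits was not tested.

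The gamma median of 0.41 was 0.24 on log2(FPKM + 1) and 0.25 without AVE0991 replicates 2 and 3, an alternative chosen after seeing the data. It was 0.33 to 0.52 leaving out 1 library, and the non-clustered median was -0.69 to -0.46. The beta median of -0.17 was 0.02 with the GC correction, 0.02 with the replicate block and the GC correction, -0.27 without AVE0991 replicates 2 and 3 and -0.22 to -0.08 leaving out 1 library. The alpha median of -0.04 was -0.07 to 0.05 leaving out 1 library and -0.10 without AVE0991 replicates 2 and 3, where the non-clustered median of -0.57 was -0.31. Several small values changed sign. Pcdh1 was 0.00 with limma-voom, -0.23 to 0.07 leaving out 1 library and 0.07 without AVE0991 replicates 2 and 3. Pcdhac1 was -0.01 on log2(FPKM + 0.1), -0.00 on log2(FPKM + 1), -0.06 to 0.28 leaving out 1 library and -0.30 without AVE0991 replicates 2 and 3, and Pcdhac2 was -0.07, -0.06, -0.07 to 0.15 and -0.23 in the same settings. Pcdhb19 was 0.03 and Pcdhb17 0.07 with the GC correction, and 0.02 and 0.06 with the replicate block added. Pcdhgc4 was -0.02 to 0.29 and Pcdhgc5 -0.54 to 0.08 leaving out 1 library. Without AVE0991 replicates 2 and 3 Pcdhgc4 was -0.04, Pcdhgc5 0.26 and Pcdh8 0.01. In these settings the cause was not tested.

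The replicate numbers of the titles did not pair libraries (correlations of deviations -0.021, 0.092 and -0.353). With the replicate block edgeR called 0 genes in all, at an unadjusted p under 0.05 it gave 20 of 69 members and 19.3% of all genes, and no named gene changed sign. Restricting the table to rows with whole counts in every library left no alpha or gamma gene, so it gave no value for those classes. Strand use in the authors' counting and the division of shared reads limit single alpha and gamma isoforms.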
